A study of Mus musculus with 10 samples.

Results

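The 38 genes described here carry fatty acids into the muscle fiber and oxidise them. They form a list by function, of uptake, activation, carnitine shuttle, β-oxidation, electron transfer, uncoupling, thioesterase and lipase genes with the PPAR receptors and their coactivators. All 38 were among the 37947 gene symbols of the deposited RNA sequencing table. Each gene was read at its transcript of highest mean across the 10 libraries, and 36 of the 38 reached a mean FPKM of at least 1 and were tested. FPKM is a number of sequenced fragments scaled to the length of the transcript and the size of the library, so that levels of different genes can be set side by side. Values below are log2 FPKM unless stated, and a value listed at 0 stands for any FPKM of up to 1.

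The data came from gastrocnemius muscle, the large calf muscle, of C57BL/6 mice, which the study's methods state were male. The young group was 6 months old and the aged group 24 months old, with 5 libraries in each, and the labels name no treatment or transgene in either. The study compared the ages to describe gene expression in muscle that loses mass with age. The labels number the libraries 1 to 5 in each group without stating whether a library is 1 mouse, so p-values measure the spread between these libraries.

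Fatty acids enter a muscle fiber through membrane transporters, are bound by a cytosolic protein and are joined to coenzyme A. The carnitine shuttle brings them into the mitochondrion, where the β-oxidation spiral shortens the chain step by step and hands electrons to ubiquinone. The PPAR receptors are nuclear receptors that bind fatty acids and switch on many of these genes, above all in fasting and endurance exercise, and the oxidative fibers use the pathway most.

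Whole reads recovered from the values gave depths of 19886431 to 34554346 reads for a library, so that 1 kb of transcript at an FPKM of 1 held 19.9 to 34.6 reads. The tissue label was checked with muscle markers. The summed FPKM of 8 fast fiber genes was 114000 to 147000 in young and 99800 to 157000 in aged muscle. The libraries numbered 3 stood apart in both groups. In them, transcripts of 1 gene parted from each other, and this went furthest in aged 3. Each transcript was set on its own median over the libraries, and the gap between the highest and the lowest transcript of a gene was taken. Over the 28 members with at least 2 transcripts tested, this gap had a median of 2.21 on the log2 scale in aged 3 and 0.64 in young 3, against 0.11 to 0.36 in the other libraries. Over all genes at the lowest-numbered transcript, aged 3 deviated by a median of 0.40 for transcripts under 1 kb and by -0.49 for those of 4 kb or more.

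The promoters were searched for the DR1 motif, the letters AGGTCANAGGTCA bound by PPAR and its partner RXR, on both strands of the 250 bases before each start, with up to 2 mismatches. Of the 38 members, 33 had a promoter in the RefSeq table (GRCm38.p6). A match was found for 4 of the 33 (12.1%), against 3.7% of the genes and 3.2% of the promoters in the table. The matched stretches are shown because they are the members' promoters nearest to the motif, on the strand of the gene, with the motif's match in capitals. The Ucp3 promoter is shown whole, since its SD among the young libraries was the highest of the members.
Cd36, chr5:17835927-17835979, minus strand: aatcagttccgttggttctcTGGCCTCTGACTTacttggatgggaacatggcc
Echs1, chr7:140116472-140116524, minus strand: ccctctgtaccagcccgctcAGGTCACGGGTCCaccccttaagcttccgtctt
Etfa, chr9:55512288-55512340, minus strand: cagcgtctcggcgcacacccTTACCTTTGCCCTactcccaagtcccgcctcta
Ucp3, chr7:100472741-100472990, plus strand: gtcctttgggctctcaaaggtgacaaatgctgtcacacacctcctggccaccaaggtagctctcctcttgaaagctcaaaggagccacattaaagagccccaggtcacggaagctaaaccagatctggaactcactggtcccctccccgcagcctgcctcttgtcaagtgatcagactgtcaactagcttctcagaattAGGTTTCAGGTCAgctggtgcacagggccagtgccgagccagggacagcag
The match began 63 bases before an annotated start of Cd36, 83 before that of Echs1, 77 before that of Etfa and 51 before that of Ucp3. In Cd36 and Etfa it lay on the opposite strand. The bases after that Cd36 start were not found in the transcript sequences of the gene. Those of Echs1, Etfa and Ucp3 were found in theirs. A match of letters is a description of the sequence and not a measured binding site.

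The ages were hard to tell apart in this pathway. limma gave an unadjusted p under 0.05 and a higher level in aged muscle to 2 of the 36 members (5.56%), Fabp3 and Acsl5, against 6.05% of the 10161 genes tested. Without Acsl5, whose young mean was at the filter's minimum, the count was 1 of 35 (2.86%). It gave 0 members a lower level, against 0.876% of all genes. With Benjamini-Hochberg adjustment, 0 members had an adjusted p under 0.05 by limma, against 0.00984% of all genes. No member had every aged library above every young one, against 2.08% of all genes, and no member had the reverse, against 0.344%. The mean was higher in aged muscle for 28 members (77.8%), against 61.4% of all genes. The median difference over the members was 0.15, beside 0.07 over all genes tested, and without aged 5 these medians were 0.02 and 0.05. Single members ranged from -0.57 for Ucp3 to 0.76 for Fabp3.

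**Figure D1:**
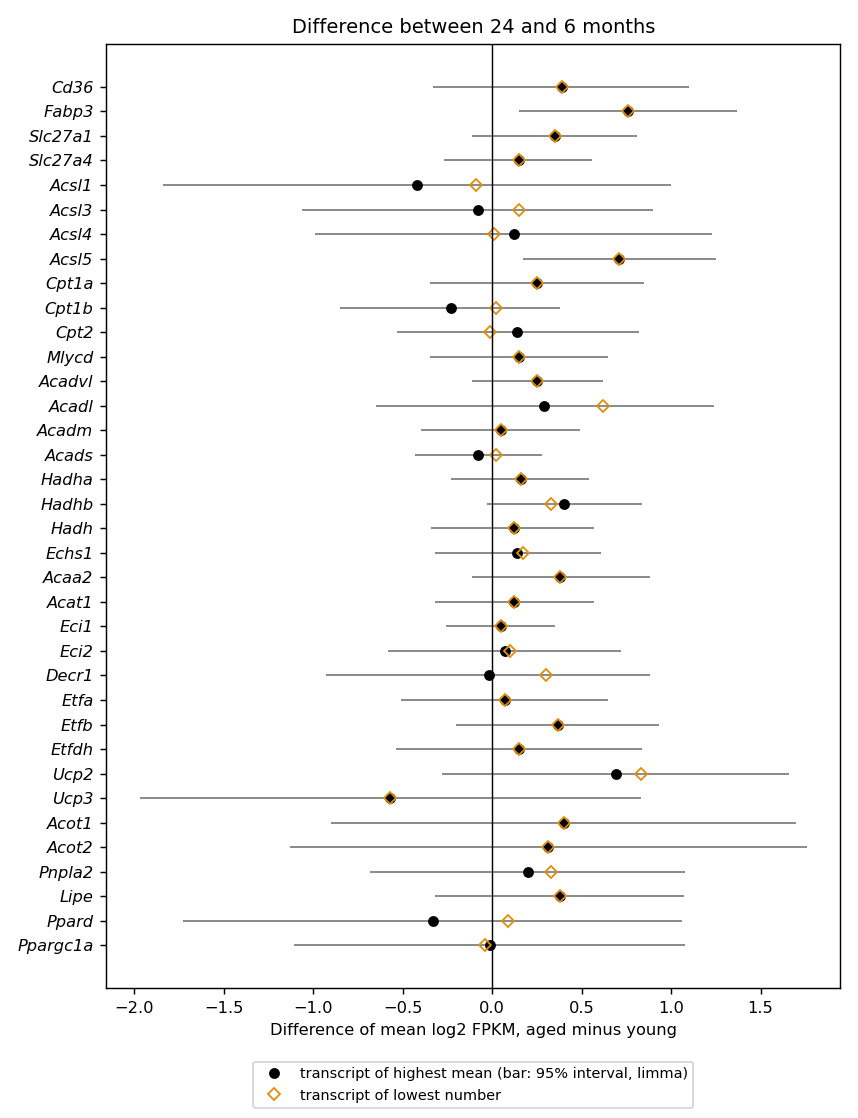
Difference of mean log2 FPKM (aged minus young) for the 36 members tested, in the order of their roles. Black points are the transcript of highest mean with limma's 95% interval, and open diamonds are the transcript of lowest number. The interval leaves out 0 for Fabp3 and Acsl5 only.

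When the same-numbered libraries were compared as pairs, 5 members (13.9%) were higher, against 9.5% of all genes. These were Fabp3, Acsl5, Hadhb, Acaa2 and Etfb. Without aged 3, 6 members (16.7%) were higher, against 12.5% of all genes, namely Cd36, Fabp3, Slc27a1, Acsl5, Acadl and Etfdh. Leaving out aged 3 also turned the sign of the difference for 8 members. Acsl1, Acsl3, Cpt1b, Decr1, Ppard and Ppargc1a became positive and Cpt2 and Hadh negative, with 0 of the 8 past the unadjusted threshold by limma on either side.

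Because the transcript of highest mean was often a short partial model, the lowest-numbered transcript was also read, a choice made after seeing the data. It differed for 19 members, with a median length of 2895 bases in place of 840. On that reading 3 members (8.33%) were higher, Fabp3, Acsl5 and Acadl, against 6.72% of all genes. Here 0 members had every aged library above every young one, against 2.44% of all genes. The mean was higher in aged muscle for 32 of the 36 (88.9%), against 66.3% of all genes, with a median difference of 0.15 beside 0.09 over all genes.

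The aged libraries differed among themselves more than the young ones. The median SD over the members was 0.258 in young and 0.555 in aged muscle, and over all genes 0.261 and 0.453. At the lowest-numbered transcript the median SD over the members in aged muscle was 0.44. Aged 5 was the highest of all 10 libraries for 16 members (44.4%), against 22.7% of all genes. With a listed 0 counted as 0, Acot1 passed the filter only through its level in aged 5, and without it the count was 15 of 35 (42.9%). Aged 3 was the lowest for 18 (50%), against 40% of all genes. At the lowest-numbered transcript, aged 5 was highest for 18 (50%), against 22.7%, and aged 3 lowest for 16 (44.4%), against 34.3%. The members deviated from their own means by a median of 0.42 in aged 5 and -0.54 in aged 3, where all genes deviated by 0.10 and -0.26. Without aged 5 the median difference over the members was 0.02, beside 0.05 over all genes tested. In that comparison 10 members turned sign, Mlycd, Acadl, Acadm, Eci2, Etfa, Etfdh, Acot1, Acot2 and Pnpla2 to negative and Ppargc1a to positive. Without aged 3 the median over the members was 0.29, beside 0.15 over all genes tested.

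**Figure D2:**
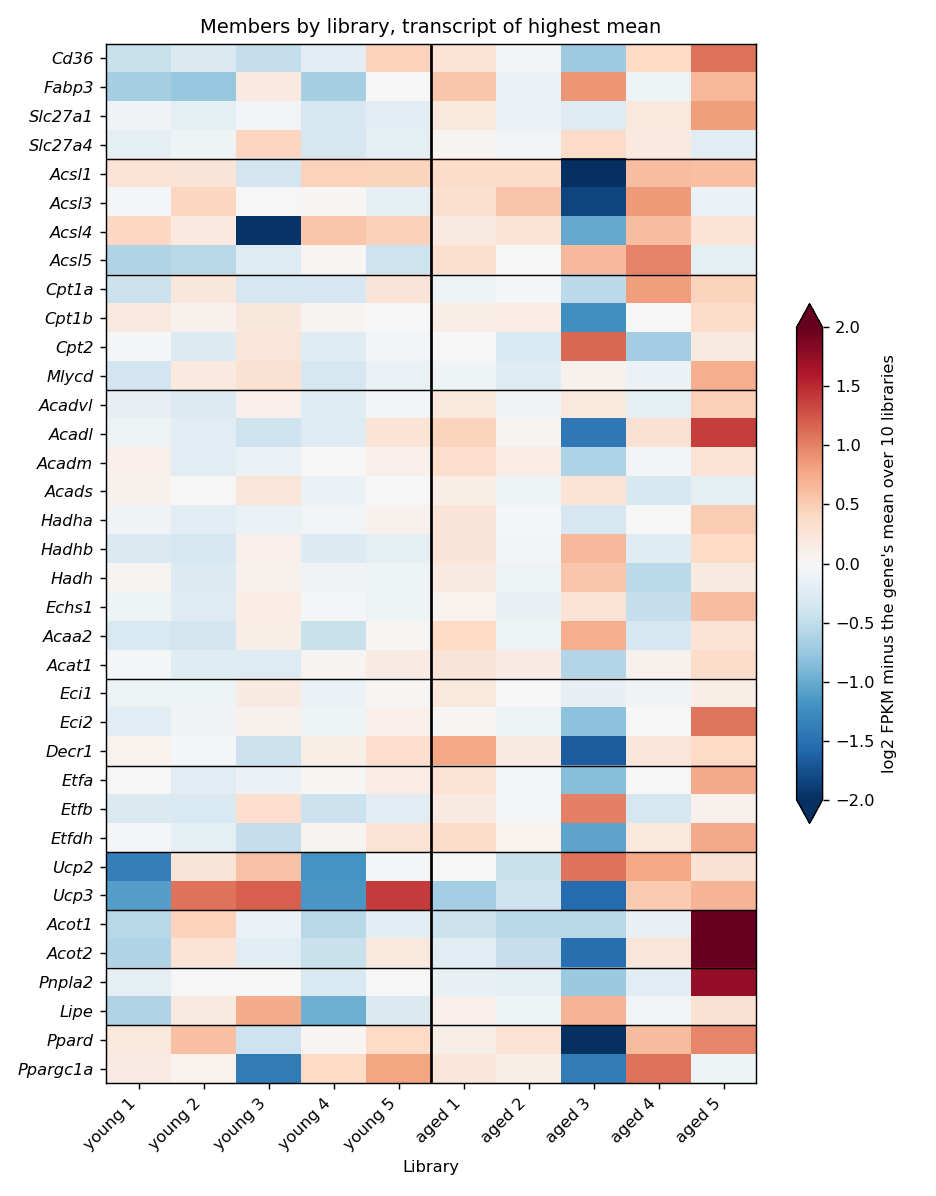
Log2 FPKM of each member minus its mean over the 10 libraries, one column for each library and lines between the role groups, with colors cut off at 2. Aged 5 is the highest library for 16 of the 36 members and aged 3 the lowest for 18.

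Among the uptake and binding genes, Fabp3 was the most abundant and the only one past limma's unadjusted threshold. Fabp3 (chr4:130308738-130315463) encodes the heart-type fatty acid binding protein, which carries fatty acids through the cytosol of oxidative muscle. Its values in young libraries 1 to 5 were 7.53, 7.43, 8.39, 7.52 and 8.19. In aged libraries 1 to 5 they were 8.74, 8.08, 9.08, 8.09 and 8.85. Young 1, 2 and 4 lay below every aged library, whereas young 3 and 5 lay within the aged range. The means were 7.81 ± 0.44 (SD, n = 5) and 8.57 ± 0.46 (SD, n = 5), a difference of 0.76 (SE 0.27, 95% interval 0.15 to 1.37) or 1.69-fold. limma's unadjusted p was 0.0197, the adjusted p was 1, and the exact permutation p was 0.0476. The aged library was higher in 5 of 5 same-numbered pairs, with an unadjusted limma p of 0.00157. Without young 2 the difference was 0.66 with an unadjusted limma p of 0.0506.

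Slow fiber markers were read beside Fabp3. Summed over 8 slow fiber genes, the FPKM in young libraries 1 to 5 was 37.5, 107, 340, 41.6 and 241. In aged libraries 1 to 5 it was 979, 533, 392, 164 and 80.2. The 3 young libraries of low Fabp3 were also the 3 of low slow fiber sums, whereas aged 5 had high Fabp3 and a low slow fiber sum. The mean was higher in aged muscle for 8 of the 8 genes, and 2 of them, Myl3 and Myoz2, had an unadjusted limma p under 0.05, of 0.0482 and 0.0426. Between pairs the values were 0.0548 and 0.0569, and 0 of the 8 passed. The slow myosin Myh7 was listed at 0 in young 1, young 4 and aged 5. In bulk muscle, fewer cells of a type and less RNA for each cell cannot be told apart, and the part of the slow fibers in the Fabp3 difference was not tested.

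**Figure D3:**
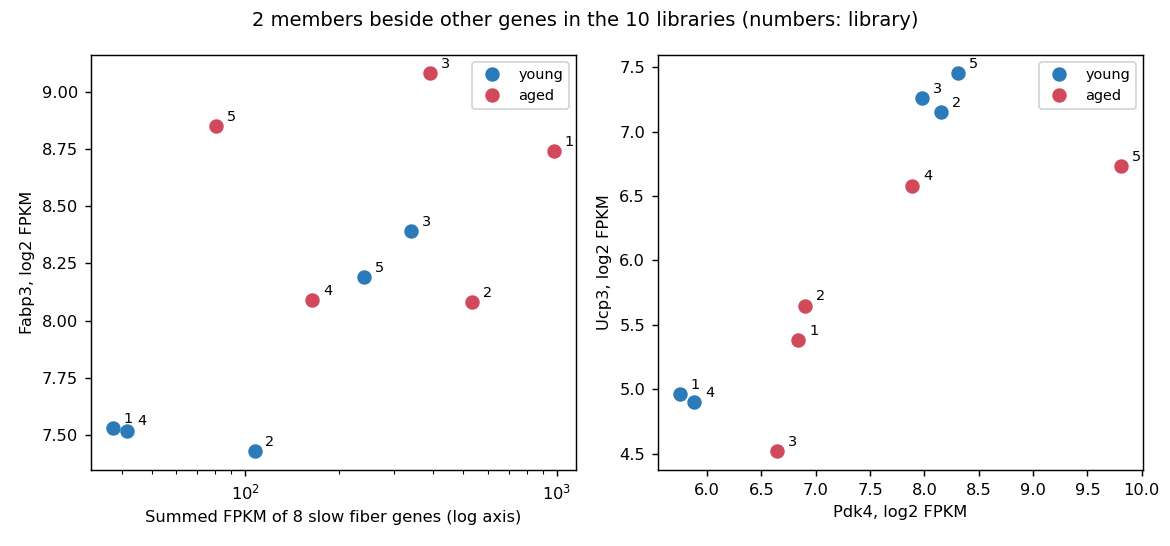
Left, Fabp3 (log2 FPKM) against the summed FPKM of 8 slow fiber genes on a log axis. Right, Ucp3 against Pdk4, both in log2 FPKM. Each point is 1 library with its number, and in the right panel young 1 and young 4 lie far below young 2, 3 and 5 on both axes.

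Cd36 encodes the fatty acid translocase of the plasma membrane, and Slc27a1 and Slc27a4 encode fatty acid transport proteins. Cd36 (chr5:17781690-17888959) read 4.77, 4.93, 4.75, 5.00 and 5.68 in young and 5.49, 5.17, 4.49, 5.62 and 6.31 in aged libraries. Aged 5 was the highest and aged 3 the lowest of all 10, so the groups overlapped. Its difference was 0.39 (SE 0.32, exact permutation p = 0.31), and without aged 3 it was 0.62 with an unadjusted limma p of 0.0393. Without aged 5 the difference of Cd36 was 0.16 with an unadjusted limma p of 0.575. Slc27a1 ranged from 3.93 to 4.21 in young and from 4.01 to 5.10 in aged libraries and differed by 0.35 (exact permutation p = 0.0952). Without aged 3 the difference of Slc27a1 was 0.46 with an unadjusted limma p of 0.0327, and without aged 5 it was 0.18 with a p of 0.269. Slc27a4 was low, with means of 1.00 ± 0.29 and 1.15 ± 0.23 (SD, n = 5 each, exact permutation p = 0.389). Endothelial cells, which also carry Cd36, were read beside these by 8 marker genes. Their summed FPKM was 55.1 to 58.8 in young and 58.4 to 76.3 in aged libraries and higher in the aged library of 5 of 5 same-numbered pairs. The mean was higher in aged muscle for 5 of the 8, 0 of them passed the unadjusted threshold by limma, and between pairs Cldn5 did. The part of these cells in the uptake genes was not tested.

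The acyl-CoA synthetases join coenzyme A to long-chain fatty acids. Acsl5 (chr19:55251861-55296628), which is best known from liver and intestine, was the other member past limma's unadjusted threshold. It read 0, 0.05, 0.34, 0.64 and 0.18 in young libraries and 0.92, 0.60, 1.24, 1.59 and 0.42 in aged libraries. Young 4 lay above aged 2 and aged 5, and otherwise the young libraries were below the aged ones. The difference was 0.71 (SE 0.24, 95% interval 0.17 to 1.25), with an unadjusted limma p of 0.0143, an adjusted p of 1 and an exact permutation p of 0.0238. The level was near the floor of the table. Its mean FPKM was 2.02 in aged libraries and between 0.999 and 1.20 in young ones, depending on the FPKM behind the listed 0, with at most 138 reads in a young and 252 in an aged library. The difference missed the threshold under quantile normalization (0.62, with an unadjusted limma p of 0.0832) and with 0.1 added to the FPKM (1.36, with a p of 0.0933).

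Macrophage markers were read beside Acsl5. The summed FPKM of 7 macrophage genes was 13.5 to 36.6 in young and 26.7 to 116 in aged muscle, with the highest sum in aged 4, where Acsl5 was also highest. The young library of highest macrophage sum, young 2 at 36.6, had Acsl5 at 0.05, while aged 2, at 26.7, had Acsl5 at 0.60. Cd68 and Lyz2 were higher in aged muscle at an unadjusted limma p under 0.05 among the 4 of 8 listed genes that were tested, and C1qa joined them between pairs. Cd68 was listed at 0 in 4 of 5 young libraries, so that its young mean FPKM lay between 0.245 and 1.05, against 3.20 in aged libraries. It passed the filter, which counts a listed 0 as 0, only through the aged group. The pan-leukocyte gene Ptprc was listed at 0 in every library except aged 4, and Adgre1 was not found by symbol. The part of these cells in the Acsl5 difference was not tested.

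Acsl1, the main synthetase of muscle, was the most abundant of its group. Its transcript Acsl1-004 (chr8:46471037-46536051) read 5.97, 5.94, 5.32, 6.15 and 6.13 in young and 6.06, 6.06, 2.68, 6.30 and 6.29 in aged libraries. Aged 3 alone was far below the rest. The difference was -0.42 (SE 0.64), and without aged 3 it turned to 0.28 with an unadjusted limma p of 0.158. At Acsl1-001 the value of aged 3 was 3.64 and the difference was -0.09 (exact permutation p = 0.96). Acsl3 and Acsl4 also read low in aged 3, at 1.45 and 1.60, and Acsl4-005 read 0.67 in young 3 against 2.82 to 3.18 in the other young libraries. Their differences were -0.08 and 0.12. Without aged 3 that of Acsl3 was 0.37, and without young 3 that of Acsl4 was -0.35.

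The carnitine shuttle showed little difference between the ages. Cpt1b, the muscle form of carnitine palmitoyltransferase 1 and the entry step of the shuttle, was its most abundant gene (chr15:89416405-89425862). The transcript Cpt1b-004 read 6.45, 6.35, 6.49, 6.31 and 6.26 in young and 6.39, 6.40, 5.03, 6.26 and 6.63 in aged libraries. All libraries but aged 3 lay within 6.26 to 6.63, and the difference was -0.23 with aged 3 and 0.04 without it. The longer transcript Cpt1b-001 read 5.98 in aged 3 and between 6.07 and 6.40 elsewhere, with a difference of 0.02 (SE 0.13, exact permutation p = 0.778). Cpt1a, the liver form, was near the floor at 0.74 ± 0.33 (SD, n = 5) and 0.99 ± 0.53 (SD, n = 5). Cpt2, which releases the acyl-CoA inside the mitochondrion, differed by 0.14 at Cpt2-003, where aged 3 was the highest library at 5.29, by -0.13 without aged 3 and by -0.01 at Cpt2-001. Mlycd, which breaks down malonyl-CoA, the inhibitor of the shuttle, differed by 0.15 (exact permutation p = 0.556).

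**Figure D4:**
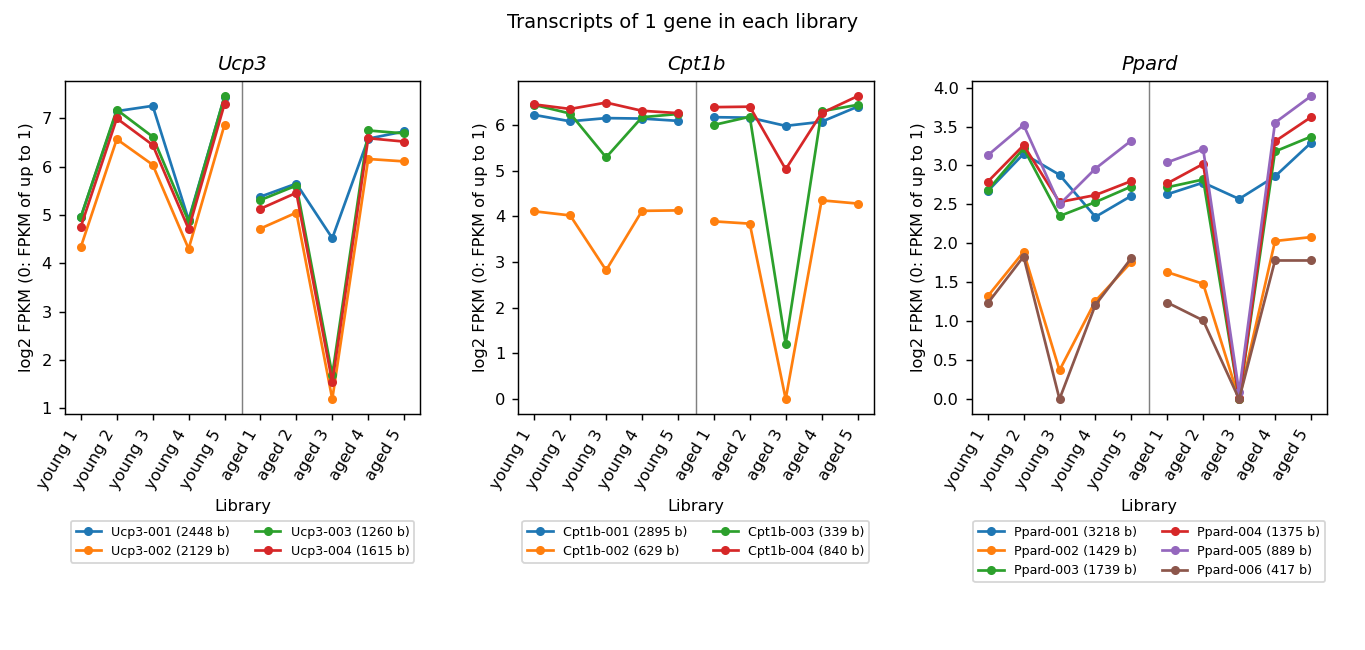
Log2 FPKM of every transcript tested for Ucp3, Cpt1b and Ppard in each library, with transcript lengths in bases in the legend. Levels differ between the transcripts of a gene in each library, and the distances between them change most in aged 3, where Ucp3-001 reads 4.52 and Ucp3-002 reads 1.19, and next in young 3.

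The β-oxidation spiral had 10 members, all tested, whose differences ran from -0.08 for Acads to 0.40 for Hadhb with a median of 0.15. Hadhb and Hadha encode the subunits of the mitochondrial trifunctional protein, which performs the last steps for long chains. Hadhb was the most abundant of the spiral (chr5:30155253-30184593). Its transcript Hadhb-008 read 7.47, 7.40, 7.86, 7.48 and 7.56 in young and 8.01, 7.71, 8.41, 7.51 and 8.16 in aged libraries. Young 3 lay above aged 2 and aged 4 and young 5 above aged 4, and the aged library was higher in 5 of 5 same-numbered pairs. The difference of 0.40 (SE 0.19) had an unadjusted limma p of 0.0641 between the groups and 0.0269 between pairs, and without aged 3 it was 0.29. At Hadhb-001 it was 0.33 (unadjusted limma p = 0.0565, exact permutation p = 0.0238). Hadha differed by 0.16 (exact permutation p = 0.349).

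Acadl, the long-chain acyl-CoA dehydrogenase (chr1:66830839-66863309), depended on the transcript. The short Acadl-002 of 649 bases read 6.52, 6.40, 6.21, 6.36 and 6.89 in young and 7.07, 6.67, 5.19, 6.92 and 8.00 in aged libraries. Aged 3 was the lowest and aged 5 the highest of all 10. Its difference was 0.29 with an exact permutation p of 0.563, and without aged 3 it was 0.69 with an unadjusted limma p of 0.025. Without aged 5 the difference was -0.01 with an unadjusted limma p of 0.971. The longer Acadl-001 of 1916 bases read 5.96, 5.86, 6.10, 5.79 and 6.26 in young and 6.58, 6.13, 6.61, 6.30 and 7.44 in aged libraries. Only young 5 reached into the aged range, above aged 2, and aged 5 was again the highest of all 10. On this transcript the difference was 0.62 (SE 0.24), with an unadjusted limma p of 0.0274 and an exact permutation p of 0.0159.

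The other acyl-CoA dehydrogenases take chains of other lengths. Acadvl, for very long chains, differed by 0.25 (exact permutation p = 0.103), Acadm, for medium chains, by 0.05 and Acads, for short chains, by -0.08. Acaa2, the thiolase that cuts off acetyl-CoA, read 5.25 to 5.83 in young and 5.36 to 6.43 in aged libraries, a difference of 0.38 with an unadjusted limma p of 0.117 between the groups and 0.0345 between pairs. Without aged 3 it was 0.25. Hadh, Echs1 and Acat1, a dehydrogenase, a hydratase and a thiolase for shorter chains, differed by 0.12, 0.14 and 0.12, with exact permutation p-values of 0.579, 0.508 and 0.563. Without aged 3 the difference of Hadh was -0.01.

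The enzymes for unsaturated fatty acids shift or reduce double bonds so that the spiral can go on. Eci1, an enoyl-CoA isomerase (chr17:24426683-24439316), was the most even. It read 5.73, 5.73, 6.00, 5.70 and 5.85 in young and 6.04, 5.83, 5.66, 5.76 and 5.95 in aged libraries, a difference of 0.05 (95% interval -0.26 to 0.35). The young and aged ranges covered each other almost fully. Eci2, its relative, read 6.35 in aged 5 and 4.46 in aged 3, with all other libraries between 5.07 and 5.38. Decr1, the dienoyl-CoA reductase, differed by -0.02 at Decr1-002, where aged 3 read 3.81, by 0.39 without aged 3 and by 0.30 at Decr1-001 (unadjusted limma p = 0.0773, exact permutation p = 0.0476).

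Electrons of the acyl-CoA dehydrogenases pass through the electron transfer flavoprotein, encoded by Etfa and Etfb, to the dehydrogenase Etfdh and on to ubiquinone. Etfb (chr7:43444072-43457800) read 7.29, 7.27, 7.91, 7.14 and 7.36 in young and 7.76, 7.56, 8.58, 7.24 and 7.66 in aged libraries. The library numbered 3 was the highest of each group. The difference was 0.37 with an unadjusted limma p of 0.181 and an exact permutation p of 0.19. The aged library was higher in 5 of 5 pairs, with an unadjusted limma p of 0.0343 between pairs. Without aged 3 the difference was 0.16 with an unadjusted limma p of 0.394. Etfa, its partner subunit, differed by 0.07 and was lowest in aged 3 at 5.69, in contrast to Etfb. Etfdh differed by 0.15, and by 0.43 with an unadjusted limma p of 0.0478 without aged 3. Without aged 5 the difference of Etfdh was -0.02 with an unadjusted limma p of 0.944.

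The uncoupling proteins varied among young libraries more than between the ages. Ucp3 (chr7:100472991-100486432) is the muscle uncoupling protein of the inner mitochondrial membrane, a gene that is known to rise in fasting. Ucp3-001 read 4.96, 7.15, 7.26, 4.90 and 7.45 in young and 5.38, 5.65, 4.52, 6.58 and 6.73 in aged libraries. Young 1 and young 4 lay below 4 of the 5 aged libraries and young 2, 3 and 5 above all of them. The difference of -0.57 (SE 0.63, 95% interval -1.97 to 0.83) had an unadjusted limma p of 0.388 and an exact permutation p of 0.413. The SD among young libraries, 1.30, was at the 98.9th percentile of all genes tested. Each young library held 1552 to 12967 reads of Ucp3-001. In aged 3 the other transcripts Ucp3-002, Ucp3-003 and Ucp3-004 read 1.19, 1.69 and 1.54.

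Ucp2, a relative expressed in many tissues, read 1.84, 3.47, 3.80, 2.02 and 3.19 in young and 3.22, 2.76, 4.30, 3.99 and 3.51 in aged libraries. Here too young 1 and young 4 were the lowest. Its difference was 0.69 (SE 0.44, exact permutation p = 0.183), the highest of the members after Fabp3 and Acsl5. It ranged from 0.43 without young 1 to 0.92 without young 3 when 1 library was left out. Young 1 and young 4 were the lowest of the 5 young libraries for 10 members (27.8%), against 8.28% of all genes, a pattern that was noticed in the values of Ucp3 and Ucp2. Without these it was 8 of 34 (23.5%). Besides the uncoupling proteins these were Cpt1a, Mlycd, Eci1, Eci2, Acot1, Acot2, Pnpla2 and Lipe. Pdk4, a kinase that spares glucose and a known PPAR target outside the list, was named after its values were seen. It read 5.75, 8.15, 7.98, 5.88 and 8.31 in young and 6.84, 6.90, 6.64, 7.89 and 9.81 in aged libraries, again with young 1 and young 4 lowest.

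The same young 1 and young 4 libraries had low sums of adipocyte markers and of slow fiber markers. The summed FPKM of 8 adipocyte genes was 190, 267, 458, 211 and 271 in young and 329, 342, 448, 257 and 390 in aged libraries. Fabp4 made up most of it, and the leptin gene Lep was listed at 0 in 6 libraries, young 1, 4 and 5 and aged 2, 3 and 4. The mean was higher in aged muscle for all 7 adipocyte genes tested, and 0 of them had an unadjusted limma p under 0.05. Between pairs 2 of the 7 did, Cfd and Fabp4. The part of other cells in this pattern was not tested.

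**Figure D5:**
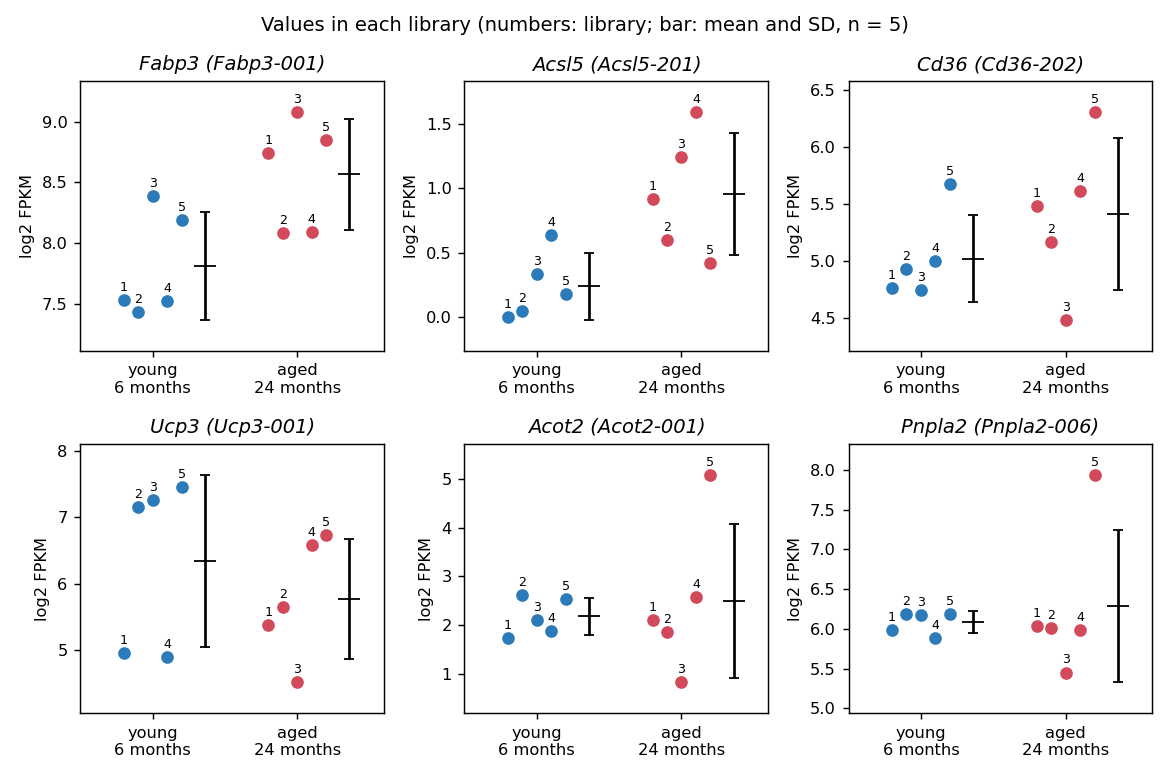
Log2 FPKM of 6 members in each library, with points numbered by library and the mean with its SD (n = 5) to the right of each group. Fabp3 and Acsl5 lie higher in aged muscle with overlap, Ucp3 splits the young libraries, and aged 5 stands above the rest for Acot2 and Pnpla2.

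The acyl-CoA thioesterases Acot1 and Acot2 release free fatty acids from acyl-CoA in the cytosol and in the mitochondrion. They are neighboring, similar genes on chromosome 12. Their promoters are shown because both genes were high in the same library.
Acot1, chr12:84009252-84009501, plus strand: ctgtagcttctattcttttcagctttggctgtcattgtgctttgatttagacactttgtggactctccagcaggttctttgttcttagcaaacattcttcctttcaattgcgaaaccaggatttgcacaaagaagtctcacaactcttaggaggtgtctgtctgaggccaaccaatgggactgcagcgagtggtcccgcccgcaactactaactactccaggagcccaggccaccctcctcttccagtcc
Acot2, chr12:83987611-83987860, plus strand: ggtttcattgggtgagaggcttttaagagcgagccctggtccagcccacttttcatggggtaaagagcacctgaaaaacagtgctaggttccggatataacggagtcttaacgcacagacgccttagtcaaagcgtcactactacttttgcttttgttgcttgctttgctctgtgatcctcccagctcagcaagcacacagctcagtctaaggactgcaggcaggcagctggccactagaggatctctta
Aligned with each other, the 250-base stretches were identical at 119 of 223 columns (53.4%), and neither held the DR1 motif with up to 2 mismatches. The longest transcripts were identical at 1213 of 1644 columns (73.8%). Of all stretches of 76 bases, the read length, 373 of 2121 in Acot2 also occurred in Acot1 (17.6%), so that reads could be shared between them.

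Acot1 read 0, 1.01, 0.44, 0 and 0.33 in young and 0.12, 0, 0, 0.41 and 3.25 in aged libraries. Only aged 5 exceeded 1.01, and Acot1 passed the filter on mean FPKM through that library. Acot2 read 1.74, 2.61, 2.11, 1.89 and 2.54 in young and 2.11, 1.87, 0.83, 2.57 and 5.08 in aged libraries. Aged 5 was again far above the rest. The differences were 0.40 and 0.31 with exact permutation p-values of 0.817 and 0.762, and without aged 5 they were -0.22 and -0.33.

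The triglyceride lipases free fatty acids from lipid droplets. Pnpla2 (chr7:141455188-141460743), the adipose triglyceride lipase, read 5.99, 6.19, 6.18, 5.88 and 6.19 in young and 6.04, 6.01, 5.45, 5.98 and 7.94 in aged libraries. Aged 5 alone lay above 6.19. Its difference was 0.20 (SE 0.40, exact permutation p = 0.937), and without aged 5 it was -0.22 with an unadjusted limma p of 0.233. At Pnpla2-001 aged 5 read 7.24 and the other libraries 5.14 to 5.90. Lipe, the hormone-sensitive lipase, was lower, ranging from 1.75 to 3.46 in young and from 2.64 to 3.40 in aged libraries, with a difference of 0.38 and an exact permutation p of 0.278.

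Of the PPAR receptors and coactivators, the receptor Ppard and the coactivator Ppargc1a were tested, and Ppara and Ppargc1b were too low. Ppard, the main PPAR of skeletal muscle (chr17:28232754-28301469), read 3.13, 3.52, 2.50, 2.96 and 3.32 in young and 3.04, 3.21, 0.09, 3.55 and 3.89 in aged libraries at Ppard-005. Aged 3 was near 0 on this transcript of 889 bases and at 2.57 on Ppard-001 of 3218 bases. The difference was -0.33 on the first (exact permutation p = 0.881) and 0.09 on the second (exact permutation p = 0.627), and without aged 3 it was 0.33 on the first. Ppargc1a, which drives mitochondrial gene expression, read 1.56, 1.46, 0, 1.79 and 2.19 in young and 1.64, 1.52, 0, 2.48 and 1.31 in aged libraries at Ppargc1a-002. Both libraries numbered 3 were listed at 0, and the difference was -0.01 (exact permutation p = 0.984) and, without aged 3, 0.34. Ppara was listed above 0 only in young 5, at 0.64, and in aged 4, at 0.39. Ppargc1b was listed above 0 only in young 1 at 0.32, young 2 at 0.42 and aged 4 at 0.18. Lower levels are not shown in the table, so the ages could not be compared for these genes.

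Other genes of fatty acid metabolism, from lists of carnitine, lipid droplet, peroxisomal, acyl-CoA, ketone, AMPK and PPAR genes, numbered 87, of which 80 were tested. By limma, 2 of the 80 (2.5%) were higher in aged muscle at an unadjusted p under 0.05, against 6.05% of all genes, and 0 were lower, against 0.876%. Their median difference was 0.00. The 2 were Lpl and Acot9. Between pairs 4 of the 80 (5%) were higher, these 2 with Acadsb and Fabp4, against 9.5% of all genes. Lpl, the lipase that frees fatty acids from circulating lipoproteins, read 5.20, 5.15, 5.87, 5.26 and 6.45 in young and 6.32, 5.84, 6.92, 5.88 and 6.47 in aged libraries, a difference of 0.70 with an unadjusted limma p of 0.0447 and an exact permutation p of 0.0714. Young 5 and young 3 lay within the aged range. Acot9, a mitochondrial thioesterase, read 2.58, 2.59, 2.58, 2.77 and 2.75 in young and 2.95, 2.92, 3.05, 3.36 and 3.31 in aged libraries. Every aged library was above every young one, a difference of 0.46 (unadjusted limma p = 0.00954, exact permutation p = 0.00794, the smallest that 5 against 5 can give).

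The most abundant genes of the other lists did not pass the threshold. Crat, the carnitine acetyltransferase, differed by -0.11 and the peroxisomal carrier Scp2 by 0.07. Oxct1, which lets muscle use ketone bodies, differed by 0.09, the AMPK subunit gene Prkab2 by -0.29, the transcription factor gene Tfeb by -0.20 and the heat shock gene Hspb8 by 0.24. Young 1 and young 4 were the lowest of the young libraries for 15 of the 80 (18.8%), against 8.28% of all genes, and for 14 without Pdk4, which had shown the pattern first. The 15 were Slc25a20, Aldh9a1, Plin3, Plin4, Plin5, Gpihbp1, Angptl4, Abcd3, Acaa1a, Amacr, Acot8, Prkag1, Foxo1, Klf15 and Pdk4.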

How the data were processed

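RNA sequencing of gastrocnemius muscle from young and aged mice was analysed, with 5 libraries for each age. Per the study's methods, poly-A RNA was sequenced in paired reads of 76 bases, mapped to mm10 with TopHat2 and Bowtie2 and expressed as FPKM. The authors deposited the log2 of FPKM for each of 92251 transcripts and each library, with an FPKM of up to 1 listed as 0. The methods describe a RefSeq gene model, whereas the transcripts carry Ensembl and Vega names, and the program that counted reads is not given in the sources used here. A read shared by transcripts of 1 gene can count for each.

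Libraries were grouped by the age in their labels. limma 3.58.1 (R 4.3.3, lmFit and eBayes) was fitted without covariates to the deposited log2 values of 38059 transcripts (mean FPKM 1 or more). p-values were adjusted over all of these by the Benjamini-Hochberg method, and 10161 genes were read at their transcript of highest mean. The fit was tested on simulated data. Single genes were also compared by an exact permutation test (two-sided, 252 labellings). The members and lists were chosen with earlier results of these data known. Values by library were given for members past limma's unadjusted threshold of 0.05, the most abundant of each role, those listed at 0 in a library, the PPAR genes and Acot1 and Acot2, and for further members chosen after their values were seen. Of the other pathway genes, those past the threshold and otherwise the most abundant of a list were named.

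Across the transcripts tested, same-numbered young and aged libraries deviated from their group means together, with correlations of 0.131 to 0.695 and a mean of 0.351 against -0.0376 for other combinations. All 5 exceeded 0.1, so the numbers were taken as pairs. The labels do not say what a number shares.

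Depths were recovered from the steps between values. At a tolerance of 0.03 reads, whole reads were found for 40777 (99.96%) of the 40794 transcripts listed above 0 in 4 or more libraries. Promoters were taken from RefSeq on GRCm38.p6, and positions are those of RefSeq genes on that build. Alternative filters, pseudocounts, normalizations, variance models, transcripts, pairs and omitted libraries were tried. Tables and figures were made in Python 3.11.15 (pandas 2.3.3, numpy 2.4.6, matplotlib 3.10.9, scipy 1.17.1).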

Additional observations from a re-analysis of the deposited data

Results flagged for a closer look

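For each of the 38 members the 5 young and the 5 aged values were searched for a library whose gap to its nearest neighbor exceeded 0.71 of the whole range of its group, the critical value for 5 samples. Of the 76 groups, 15 held such a library, where chance flags about 1 in 20 groups. Over the members tested it was 12 of 72 groups (16.7%), against 18.2% of the groups of all genes tested. Aged 3 accounted for 6 of them, all low: Acsl1 at 2.68, Acsl4 at 1.60, Cpt1b at 5.03, Acat1 at 5.00, Decr1 at 3.81 and Ppard at 0.09 on the log2 FPKM scale. Young 3 accounted for 3, with Acsl1 at 5.32 and Acsl4 at 0.67 low and Etfb at 7.91 high. The same libraries were those in which transcripts of 1 gene parted. Aged 5 was high for Acot1 at 3.25 and Pnpla2 at 7.94, where the next aged library reached 0.41 and 6.04. In young 5, Cd36 at 5.68 stood above the other young libraries, which read 4.75 to 5.00. The remaining 3 were set by the floor of the table, with genes listed at 0 in every other library of the group, namely Ppara in young 5 at 0.64 and in aged 4 at 0.39, and Ppargc1b in aged 4 at 0.18. No cause was tested.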

How the results depend on the processing

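The count of 0 members lower in aged muscle held under every alternative run. The signs of single differences did not hold, with 8 members turning without aged 3, 10 without aged 5, 7 without both libraries numbered 3, 6 at the lowest-numbered transcript, 5 at the mean over transcripts, 3 under quantile normalization and 0 to 2 without any 1 other library. Fabp3 and Acsl5 stayed positive wherever they were tested. The count of members higher at an unadjusted limma p under 0.05, 2 in the comparison as reported, was 1 of 33 with values above 0 required in all 10 libraries, where Acsl5 was not tested (6.83% of all genes), 1 with 0.1 added to the FPKM (5.38%) and 1 under quantile normalization (3.54%). It was 5 with the same-numbered libraries as pairs (9.5%) and 5 without both libraries numbered 3 (13.5%). Leaving out 1 library at a time gave 1 without young 2 (4.07% of all genes) to 6 without aged 3 (12.5%), with 4 without young 3 (6.73%) and 4 without aged 4 (5.09%), and the groups of 0 to 1 member did not overlap, the 1 being Acsl5 without young 4 (2.78%, against 3.67% of all genes). The median difference over the members was 0.02 (without aged 5) to 0.29 (without aged 3) when 1 library was left out. Over all genes tested it was 0.05 without aged 5 and 0.15 without aged 3. The pairing changed the call of Hadhb, Acaa2 and Etfb and of no other member. The causes of these shifts were not tested. Without any filter the count was 3 of 38 (7.89%), against 6.51% of all genes. Fabp3 ranged from 0.63 to 0.90 and Acsl5 from 0.55 to 0.85 when 1 library was left out. The count of members whose groups did not overlap uses no variance model, so the alternatives of trend, test and pairs do not apply to it. The table lists an FPKM of up to 1 (19.9 to 34.6 reads on 1 kb) as 0, which limits Ppara, Ppargc1b, Acot1 and Acsl5.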
